A study of Mus musculus with 13 samples.

Results

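The respiratory chain genes were 98 of the 22997 gene symbols counted in 13 RNA sequencing libraries of mouse bone marrow plasma cells. They were chosen by symbol, as the subunits and named assembly factors of complexes I to IV and of ATP synthase (complex V) encoded in the nucleus, together with the protein-coding genes of mitochondrial DNA, with 10 or more counts in 2 or more libraries. Of the members, 90 were nuclear and 8 were encoded in mitochondrial DNA. The nuclear members were 36 complex I subunits (7 core and 29 accessory), 8 complex I assembly factors, 4 subunits of complex II, 8 of complex III, 11 of complex IV and 17 of complex V, and 6 complex IV isoforms or relatives. The mitochondrial members were ND1 to ND6, CYTB and COX1. Of 13 mitochondrial names searched, 8 had a row, and the other 5 were not analysed here. Cox7a1, the contractile muscle isoform of a complex IV subunit, and Ndufa11b matched by symbol but never exceeded 4 and 5 counts in a library, and were left out.

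Sorting took 50000 bone marrow cells per library, positive for CD138 and CD45.2 and negative for B220, from mice of the strain labelled C57/BL6. VQ cells carried Vκ*MYC, Nras LSL Q61R/+ and IgG1-Cre, and came from recipients of what are called lines here, labelled D1, D4 and D5, with 2 libraries of D1, 1 of D4 and 2 of D5. The 2 tVk12653 libraries carry the label of a single transplanted line and a recipient. They entered the fits as separate units while VQ libraries of a line were summed. The tests use a spread shared over VQ, tVk12653, V and WT, to which tVk12653 adds only the spread within that line. Spread between independent tumours of its kind was not measured. V was 3 libraries from mice with Vκ*MYC and IgG1-Cre, and WT was 3 libraries from wild-type mice. The Vκ*MYC transgene carries MYC under kappa light chain control and is activated by somatic hypermutation in germinal centre B cells, and IgG1-Cre acts in B cells that transcribe the IgG1 constant region, where it unlocks the mutant Nras allele. Ages were not given in the sources used here. Since VQ and tVk12653 cells came from recipients and V and WT cells did not, genotype and transplantation cannot be told apart across these groups. The labels do not say what separates replicates, so p-values measure the spread between these libraries, part of which may be technical.

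The respiratory chain passes electrons from NADH (complex I) and succinate (complex II) through ubiquinone to complex III, and through cytochrome c to complex IV, which reduces oxygen. Complexes I, III and IV pump protons across the inner mitochondrial membrane, and complex V uses the gradient to make ATP. Mitochondrial DNA encodes hydrophobic membrane subunits of complexes I, III, IV and V, whereas complex II is entirely nuclear, so most complexes need both genomes. Plasma cells secrete antibody continuously and draw on oxidative phosphorylation for ATP.

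Total counts per library were 2096815 to 8512281. Levels are given as CPM (counts scaled to library size with trimmed means of M values), differences as log2 fold changes ± standard error (SE), and a gene was called when its adjusted p from edgeR's quasi-likelihood test, adjusted over all genes tested, was under 0.05. Plasma cell markers were detected in every group but summed to 7173 to 11219 CPM in VQ and 11592 to 14611 in tVk12653, against 45242 to 66410 in V and 40246 to 74361 in WT. Jchain alone made up most of the V and WT sums, at 34857 to 55190 CPM in V and 33543 to 64456 in WT. It had 44.5 to 1509 CPM in VQ and 3995 and 6740 in tVk12653. Of the 12 markers, 1 was called higher and 2 lower in VQ against WT, beside 17.3% and 15.1% of all genes. Markers of other cells also moved with the groups: all 15 neutrophil markers were in the table and summed to 92.5 to 1305 CPM in VQ and 105 to 166 in tVk12653 (Csf3r at 0), against 1921 to 3833 in V and 3523 to 9831 in WT. Of 11 erythroid markers 9 were in the table and summed to 5.11 to 22.1 CPM in VQ, 11.3 to 14.1 in tVk12653 (Hba-a2 at 0), 18.7 to 52.9 in V and 148 to 905 in WT, while the 9 B cell markers summed to 73.6 to 216 CPM in VQ, 91.8 to 113 in tVk12653 (Ms4a1 and Cd22 at 0), 711 to 948 in V and 617 to 977 in WT. The 9 monocyte markers summed to 20.1 to 1633 CPM in VQ, 993 to 1366 in tVk12653 (Fcgr1 and Cx3cr1 at 0), 523 to 1440 in V and 514 to 1684 in WT, and the 9 T and NK cell markers to at most 5.11 CPM in VQ, 0.925 in tVk12653 (with 8 at 0), 44.1 in V and 77.4 in WT. The 12 proliferation genes summed to 1732 to 5738 CPM in VQ, 2488 to 3016 in tVk12653, 723 to 1760 in V and 1188 to 2216 in WT. The part of these cells and of proliferation in the results was not tested, and with bulk RNA fewer cells of a type and less RNA per cell cannot be told apart. WT replicate 2 had the highest neutrophil sum of all libraries and D1 replicate 1 the highest within VQ, so counts are also given without both.

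Nuclear respiratory chain genes made up a larger share of the counts in the tumour lines than in normal plasma cells. They held 0.790 to 0.928% of all counts in VQ, 0.719 to 0.741% in tVk12653, 0.534 to 0.604% in V and 0.482 to 0.494% in WT, and no group overlapped the next in this order. Their summed level was 7228 and 7596 CPM in D1, 9645 in the D4 library, 8775 and 8881 in D5, 6855 and 7735 in tVk12653, 5562, 6283 and 5644 in V, and 5007, 4688 and 5011 in WT. By this scaled sum VQ and tVk12653 overlapped, and both stood above V and WT. Mitochondrial members held 1.77 to 2.37% of counts in VQ, 1.85 to 2.49% in tVk12653, 1.38 to 1.66% in V and 1.24 to 1.56% in WT. Here VQ overlapped tVk12653 and V overlapped WT, and all VQ and tVk12653 libraries lay above all V and WT libraries. Complex II was the one complex in which the sums lay close together, at 446 to 507 CPM in VQ, 392 to 426 in tVk12653, 434 to 484 in V and 383 to 428 in WT. Complex V was the one complex in which every VQ library stood above every other library, with 2555 and 2799 CPM in D1, 3342 in the D4 library, 3743 and 3892 in D5, 2078 and 2389 in tVk12653, 1838, 2135 and 1909.8 in V, and 1705, 1637 and 1695 in WT. Complex III sums were 797 to 1136 CPM in VQ and 837 to 940 in tVk12653, above 539 to 659 in V and 481 to 521 in WT. These sums over members carry no test.

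**Figure D1:**
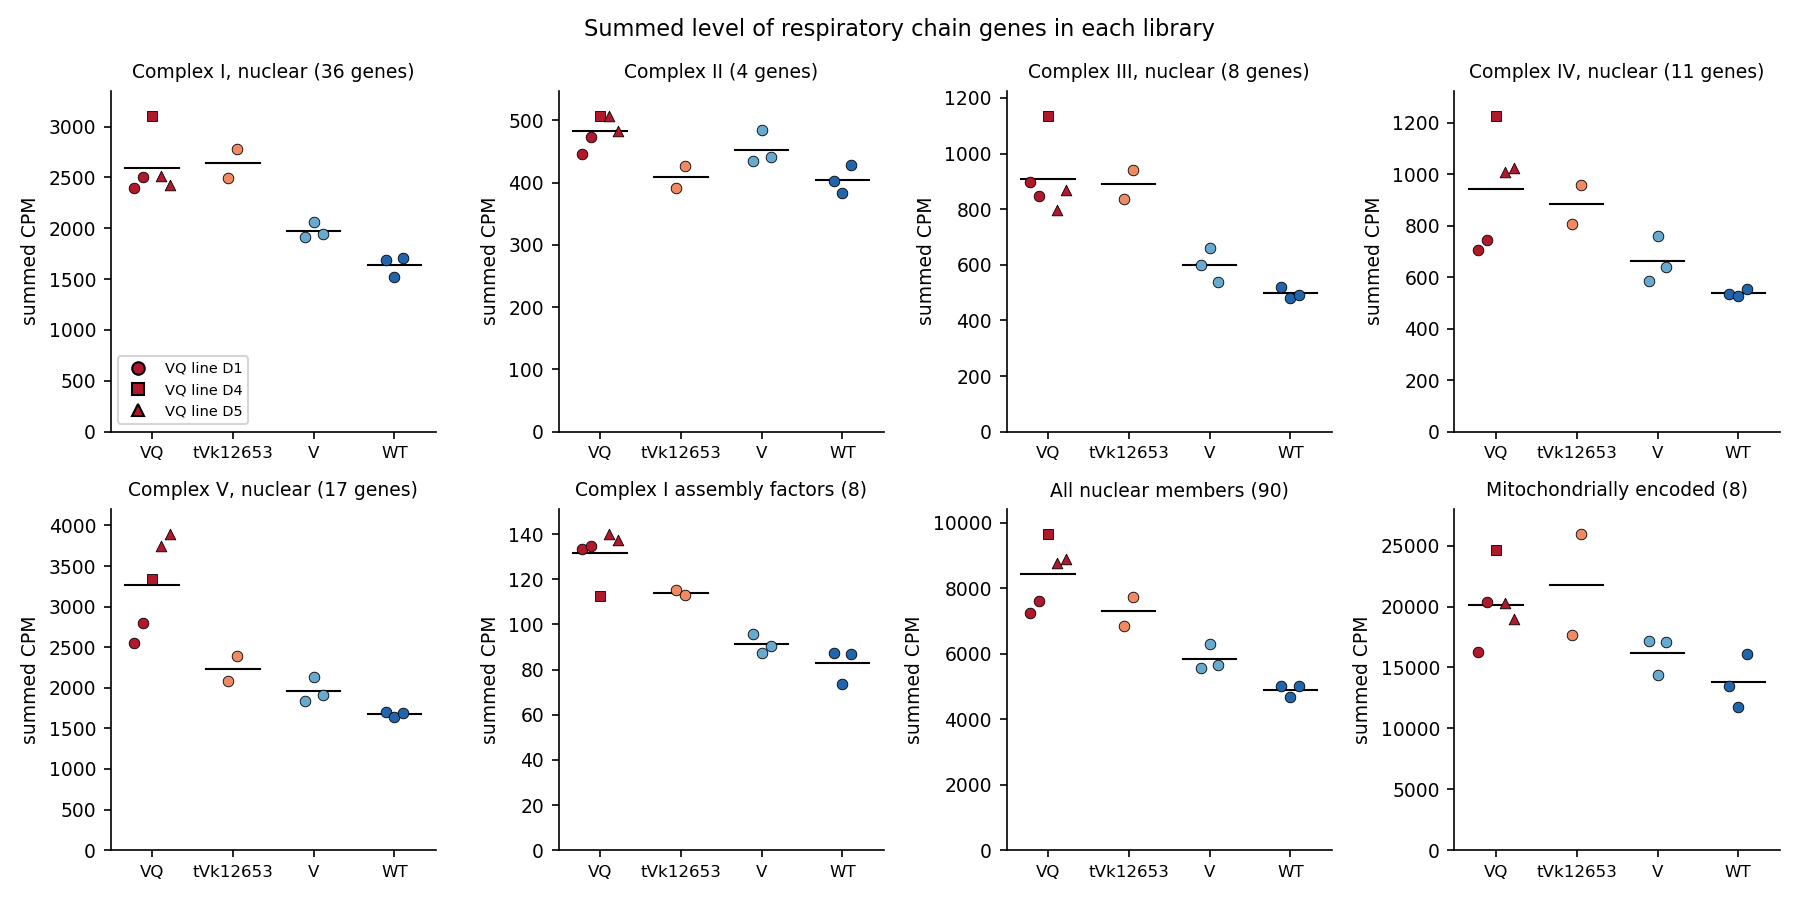
Summed CPM of each set of respiratory chain genes (vertical axes, from 0) in each library, by group (horizontal axes); points are libraries, with the VQ lines as circles (D1), a square (D4) and triangles (D5), and bars are means over libraries. Summed nuclear members were 7228 to 9645 CPM in VQ, above 5562 to 6283 in V and 4688 to 5011 in WT, while complex II spanned 383 to 507 CPM over all libraries.

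The comparison of VQ with WT asked how transplanted lines with the MYC transgene and the mutant Nras allele differ from normal plasma cells. Of 96 members tested, 55 rose in VQ and 0 fell, against 17.3% of 11933 genes called higher and 15.1% called lower; for the 0, edgeR gave 0 members lower at an unadjusted p under 0.05 and DESeq2 called 0. The median member log2 fold change was 0.79, beside 0.08 over all genes tested. By complex, 20 of 36 nuclear complex I subunits rose (5 of 7 core and 15 of 29 accessory, median 0.74), 3 of 4 complex II subunits (0.66), 7 of 8 in complex III (1.01), 8 of 11 in complex IV (0.89) and 12 of 16 tested in complex V (0.88). Of the 8 complex I assembly factors 2 rose (median 0.36), and of the 8 mitochondrial members 2 rose (median 0.54). Differences between complexes were not tested. Leaving out 1 WT library gave 44 (without replicate 1), 39 (replicate 2) or 35 members higher (replicate 3), VQ and WT fitted alone gave 34, and without both WT replicate 2 and D1 replicate 1 the count was 40.

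**Figure D2:**
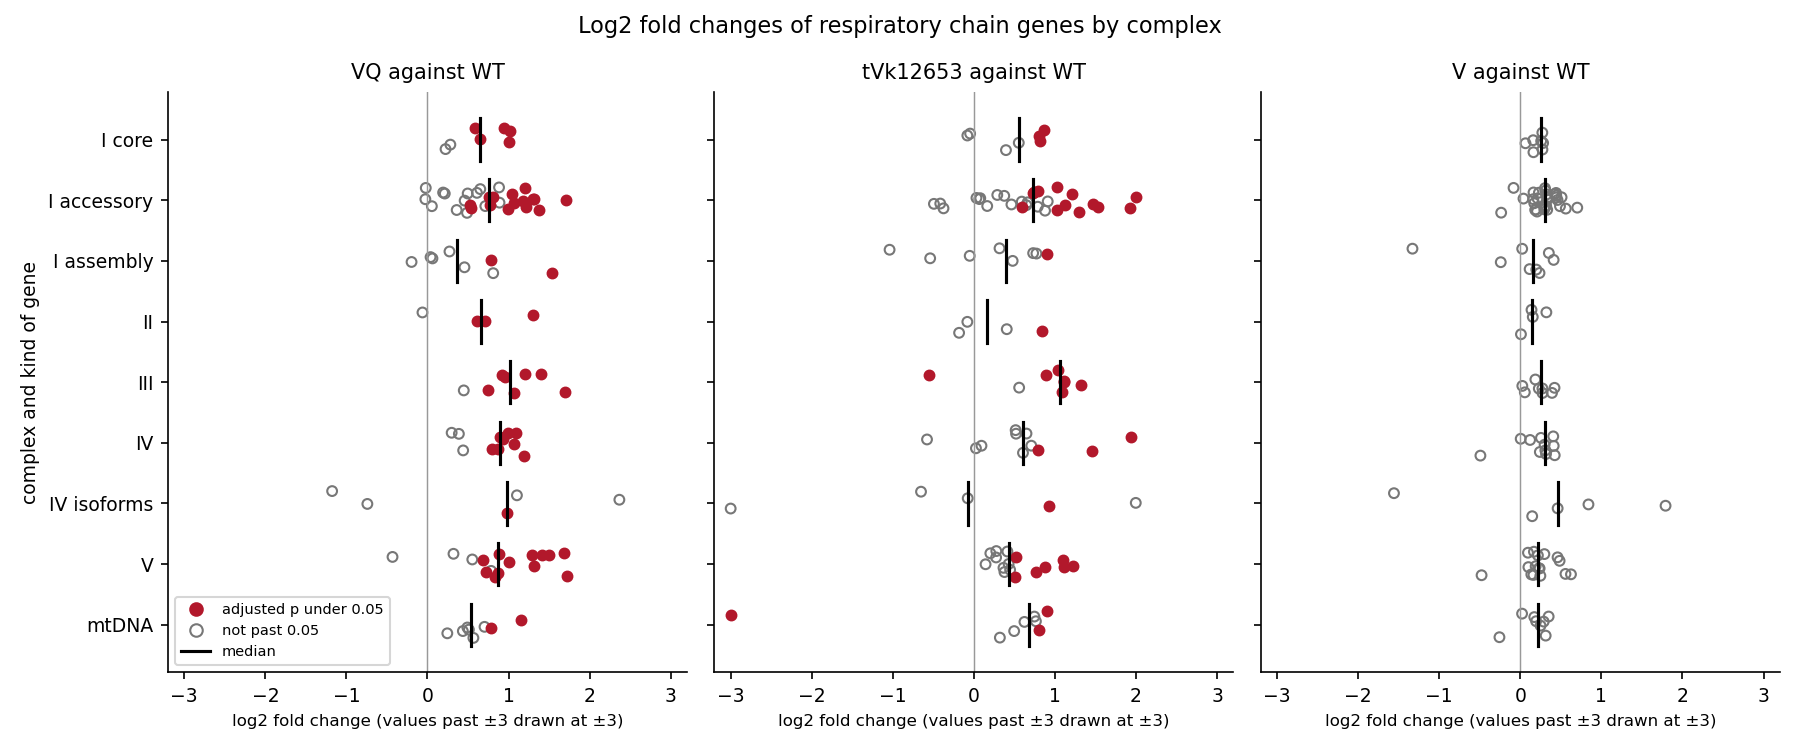
Log2 fold changes (horizontal axes) of the tested members in VQ, tVk12653 and V, each against WT, by complex and kind of gene (rows); filled points passed an adjusted p of 0.05, open points did not, black lines are row medians, and values past ±3 are drawn at ±3. Called points lie to the right of 0 in VQ, to both sides in tVk12653 and are missing in V.

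The 6 largest changes in VQ against WT lay in complexes I, III and V. Uqcr10, a small subunit of complex III, had 47.4 and 45.6 CPM in D1, 59.98 in the D4 library, 59.9 and 61.9 in D5, 38.1 and 38.8 in tVk12653, 19.7, 17.1 and 18.2 in V, and 20.4, 16.6 and 16.2 in WT. Each VQ library was above each V and WT library, and VQ exceeded WT by 1.70 ± 0.20 (adjusted p = 0.000391). Atp5mpl, a small membrane subunit of ATP synthase, had 35.8 and 45 CPM in D1, 69.2 in the D4 library, 37.4 and 53.9 in D5, 30.05 and 46.4 in tVk12653, 19.7, 27 and 21.4 in V, and 18.3, 16.6 and 14.2 in WT. It rose by 1.73 ± 0.26 (adjusted p = 0.00139), and no VQ library overlapped V or WT. Atp5g1, 1 of 3 genes for the c subunit of the ATP synthase rotor, had 15.3 and 16.6 CPM in D1, 28.8 in the D4 library, 22.3 and 28.6 in D5, 20.8 and 12 in tVk12653, 7.89, 10.3 and 8.44 in V, and 7.04, 7.74 and 7.96 in WT. The rise was 1.68 ± 0.32 (adjusted p = 0.00384), again without overlap between VQ and V or WT. Atp5md, a small subunit linked to ATP synthase dimers, had 14.8 and 18.1 CPM in D1, 25.8 in the D4 library, 28.1 and 18.4 in D5, 7.63 and 12 in tVk12653, 7.40, 11 and 7.14 in V, and 9.15, 8.48 and 6.54 in WT. It rose by 1.5 ± 0.32 (adjusted p = 0.00645), and here tVk12653 stood with V and WT, below all VQ libraries. Ndufaf4, a complex I assembly factor, had 46.3 and 58 CPM in D1, 33.4 in the D4 library, 42.7 and 42.7 in D5, 33.5 and 25 in tVk12653, 20.2, 19.2 and 22.7 in V, and 13.4, 15.1 and 18.5 in WT. Its rise of 1.53 ± 0.25 (adjusted p = 0.00205) put all VQ libraries above all V and WT libraries, with tVk12653 replicate 1 nearly level with D4. Ndufc1, an accessory subunit of complex I, had 35 and 31.3 CPM in D1, 30.1 in the D4 library, 95.9 and 101 in D5, 26.6 and 36.9 in tVk12653, 19.2, 19.6 and 19.8 in V, and 19, 14.7 and 17.9 in WT. It rose by 1.71 ± 0.45 (adjusted p = 0.0162). The D5 libraries held most of this gene's excess, and the call was lost without WT replicate 2 (adjusted p = 0.0596) or WT replicate 3 (adjusted p = 0.0543).

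The most abundant nuclear members, ranked by CPM per kb of exon averaged over the groups, did not move alike. Length was that of all annotated exons of a gene combined, such as 419 bases for Ndufa1 and 4237 for Atp5b, so the ranks depend on the annotation. By CPM alone Atp5b, at 496 to 1622, stood above Ndufa1, at 14.3 to 174. Atp5a1, the alpha subunit of the ATP synthase head and the first in complex V, had 657 and 718 CPM in D1, 853 in the D4 library, 809.5 and 832 in D5, 529 and 626 in tVk12653, 468, 568 and 503 in V, and 456, 418 and 459 in WT. VQ exceeded WT by 0.89 ± 0.15 (adjusted p = 0.00207), with no overlap. Sdha, the succinate-oxidising flavoprotein and the first in complex II, had 262 and 259.5 CPM in D1, 232 in the D4 library, 241 and 210.1 in D5, 223 and 234 in tVk12653, 285, 296 and 279 in V, and 246, 245 and 286 in WT. It differed by -0.06 ± 0.13 (adjusted p = 0.742) and did not pass the test, with overlapping VQ and WT libraries. Uqcrq, the first in complex III, had 216 and 179.9 CPM in D1, 344 in the D4 library, 111 and 163 in D5, 276 and 272 in tVk12653, 144, 157 and 128 in V, and 129, 92.5 and 108 in WT. It rose by 1.06 ± 0.28 (adjusted p = 0.0167); D5 replicate 1 lay below WT replicate 1, and the call was lost without WT replicate 2 or 3 (adjusted p = 0.0657 and 0.0742). Ndufa1, the first in complex I, and Cox6a1, the first in complex IV, differed among the VQ lines. In VQ against WT, Ndufa1 had 0.89 ± 0.56 (adjusted p = 0.25) and did not pass, and Cox6a1 rose by 1.07 ± 0.29 (adjusted p = 0.0182). Their values in each library stand with tVk12653, where both were highest.

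The complex IV isoform pairs were mostly carried by the general form. Cox4i1, the general form of a regulatory subunit, had 141 and 142 CPM in D1, 335 in the D4 library, 297 and 317 in D5, 136 and 141 in tVk12653, 150.4, 207 and 181 in V, and 149.6, 124 and 135 in WT. VQ exceeded WT by 0.99 ± 0.28 (adjusted p = 0.0223), a difference held by D4 and D5, since D1 lay within the WT range. The calls of Cox4i1, Cox6a1 (1.07 ± 0.29), Cox6b1 (0.79 ± 0.20), Cox7a2 (0.93 ± 0.21), Cox7a2l (0.98 ± 0.23) and Cox8a (0.87 ± 0.28) in VQ against WT were each lost without WT replicate 3, with adjusted p between 0.0525 and 0.0893 in that fit. Without WT replicate 2, Cox4i1, Cox6a1, Cox6b1 and Cox8a were lost too, with adjusted p between 0.0531 and 0.119, and without WT replicate 1 Cox4i1, Cox6a1 and Cox8a, with adjusted p between 0.0509 and 0.0950. Cox4i1 was also lost without line D4 or D5 (adjusted p = 0.0542 and 0.0558), and Cox8a without D1 or D4 (adjusted p = 0.0545 and 0.0991) or with RLE factors (adjusted p = 0.0547). With VQ and WT fitted alone, Ndufc1, Uqcrq, Cox4i1, Cox6a1, Cox7a2, Cox7a2l and Cox8a all missed the threshold, at adjusted p between 0.0520 and 0.0902. Without both WT replicate 2 and D1 replicate 1, Ndufc1, Uqcrq, Cox4i1, Cox6b1 and Cox8a were lost (adjusted p between 0.0534 and 0.111). The c subunit of ATP synthase, encoded by 3 genes, was carried mainly by Atp5g3, with 98.8 and 107 CPM in D1, 135 in the D4 library, 135 and 130.3 in D5, 81.1 and 96.4 in tVk12653, 58.2, 85.7 and 67.8 in V, and 51.8, 42.8 and 50.3 in WT. Atp5g3 rose in VQ against WT by 1.41 ± 0.19 (adjusted p = 0.000811), and all VQ libraries were above all others. Atp5g2 stayed between 0.352 and 7.73 CPM and was too low to be tested between these groups. Whether reads of these 3 genes could also be placed elsewhere was not examined, so their shares hold for the counts as given. Ndufa4, counted as a complex IV subunit, had 31.8 and 29.2 CPM in D1, 39.3 in the D4 library, 58.6 and 51.9 in D5, 19.9 and 22.8 in tVk12653, 24.7, 46.6 and 46.1 in V, and 24.6, 32.1 and 38.7 in WT. Its 0.44 ± 0.31 did not pass (adjusted p = 0.304), nor did its low relative Ndufa4l2, at most 4.93 CPM in any library, at -0.74 ± 1.46 (adjusted p = 0.724).

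Against V, whose mice carry the same transgene and Cre without the Nras allele or transplantation, 36 of 96 members rose in VQ and 0 fell, beside 15.6% of all genes higher and 12.4% lower. For the 0, edgeR gave 1 member lower at an unadjusted p under 0.05 and DESeq2 called 0. The members' median was 0.52 and that of all genes 0.08. Complex V contributed 11 of 16, complex III 6 of 8, complex I 12 of 36, complex IV 4 of 11, complex II 1 of 4, complex I assembly factors 1 of 8 and mitochondrial DNA 1 of 8, which was ND1. The largest were Uqcr10 at 1.65 ± 0.20 (adjusted p = 0.00063), Ndufc1 at 1.52 ± 0.44 (adjusted p = 0.0297), Atp5g1 at 1.44 ± 0.31 (adjusted p = 0.00925), Atp5md at 1.41 ± 0.32 (adjusted p = 0.0109), Uqcr11 at 1.37 ± 0.21 (adjusted p = 0.0022) and Ndufab1 at 1.29 ± 0.25 (adjusted p = 0.00583). Uqcr11, another small complex III subunit, had 61.1 and 60.9 CPM in D1, 75.3 in the D4 library, 63.6 and 63.4 in D5, 41.8 and 55.1 in tVk12653, 24.7, 32 and 22.7 in V, and 21.1, 28.4 and 29 in WT. V and WT overlapped, and VQ stood above both. Ndufab1, the mitochondrial acyl carrier protein that is also a complex I subunit, had 33.1 and 46.6 CPM in D1, 38.9 in the D4 library, 45 and 43.2 in D5, 41.8 and 35.1 in tVk12653, 15.3, 22.1 and 15.6 in V, and 15.1, 16.2 and 25 in WT. Again V and WT overlapped, with VQ and tVk12653 above both. Ndufc1 was lost without V replicate 1, 2 or 3 (adjusted p between 0.0847 and 0.0904) and Atp5md without V replicate 3 (adjusted p = 0.0524). The count of members higher fell to 22 without V replicate 1, 26 without V replicate 2 and 20 without V replicate 3, and to 14 when VQ and V were fitted alone.

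In tVk12653, a transplanted Vκ*MYC line, 37 of 96 members rose against WT and 2 fell, beside 12.6% of all genes higher and 15.7% lower, with medians of 0.60 for members and -0.05 for all genes. Complex I gave 16 of 36 subunits higher, complex III 6 of 8 with 1 lower, complex IV 3 of 11, complex V 7 of 16, complex II 1 of 4, complex I assembly factors 1 of 8, the complex IV isoforms 1 of 5, and mitochondrial DNA 2 of 8 with 1 lower. The leading genes were small accessory subunits. Cox6a1, the general form of a complex IV subunit, had 43.6 and 59.9 CPM in D1, 77.8 in the D4 library, 108 and 123 in D5, 133 and 183 in tVk12653, 46.4, 69.7 and 48.4 in V, and 39.4, 39.8 and 44.1 in WT. tVk12653 exceeded WT by 1.94 ± 0.31 (adjusted p = 0.00251). Ndufc2, an accessory subunit of complex I, had 41.7 and 60.7 CPM in D1, 53.2 in the D4 library, 57.5 and 53.4 in D5, 82.7 and 84 in tVk12653, 17.8, 36.6 and 35 in V, and 25.7, 18.1 and 21.9 in WT. The rise was 1.93 ± 0.28 (adjusted p = 0.00163). Both genes were higher in both tVk12653 libraries than in any other library. Ndufa3, also accessory, had 49.5 and 58.6 CPM in D1, 69 in the D4 library, 33.7 and 29.1 in D5, 118 and 155 in tVk12653, 64.6, 65.1 and 58.4 in V, and 48.2, 41.7 and 50.9 in WT. It rose by 1.54 ± 0.28 (adjusted p = 0.00387), with both tVk12653 libraries again the highest of 13. Cox6b1, a complex IV subunit that faces the intermembrane space, had 71.1 and 75.4 CPM in D1, 98.3 in the D4 library, 80.6 and 66.2 in D5, 126 and 142 in tVk12653, 56.2, 76.5 and 46.4 in V, and 48.6, 46.1 and 51.7 in WT. It rose by 1.46 ± 0.22 (adjusted p = 0.00191) and was highest in the tVk12653 libraries. Ndufb9 had 102 and 94.9 CPM in D1, 246 in the D4 library, 135 and 112 in D5, 162 and 221 in tVk12653, 70.5, 109 and 75.3 in V, and 66.9, 63 and 77.9 in WT. It rose by 1.47 ± 0.35 (adjusted p = 0.0135), with D4 the highest library. This call was lost without tVk12653 replicate 2 (adjusted p = 0.117) and without both WT replicate 2 and D1 replicate 1 (adjusted p = 0.0506). Ndufa1, encoded on the X chromosome and needed for complex I assembly, had 85 and 74.3 CPM in D1, 134 in the D4 library, 15.1 and 14.3 in D5, 160.2 and 174 in tVk12653, 73, 76.8 and 51.9 in V, and 40.1, 37.6 and 46.9 in WT. It stood 2.0 ± 0.62 above WT (adjusted p = 0.0372), but this call was lost in each fit that left out a tVk12653 or WT library, with adjusted p between 0.0863 and 0.144, with no filter on low counts (adjusted p = 0.0870), and without both WT replicate 2 and D1 replicate 1 (adjusted p = 0.102). Of the isoform sets, Cox7a2l had 0.92 ± 0.26 (adjusted p = 0.025), Cox7a2 0.79 ± 0.23 (adjusted p = 0.0287) and Atp5g1 1.11 ± 0.34 (adjusted p = 0.0369) against WT. Each of these calls was lost in 4 or 5 of the 5 fits that left out a library, with adjusted p between 0.0521 and 0.311, and Cox7a2l and Atp5g1 also without both WT replicate 2 and D1 replicate 1 (adjusted p = 0.0645 and 0.0827).

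Uqcrc1 was the nuclear member that fell in tVk12653. It encodes a core protein of complex III and had 212 and 204 CPM in D1, 239 in the D4 library, 249 and 269.6 in D5, 86.2 and 88.4 in tVk12653, 138, 159 and 139 in V, and 126, 126 and 133 in WT. Both tVk12653 libraries were the lowest of all 13 while the VQ libraries were the highest, and tVk12653 differed from WT by -0.56 ± 0.16 (adjusted p = 0.0267). Without a tVk12653 or a WT library this difference lay between -0.57 and -0.52 with adjusted p between 0.0579 and 0.157. It also missed the threshold, with adjusted p of 0.0964 with no filter on low counts and 0.0648 without both WT replicate 2 and D1 replicate 1. The other 7 complex III subunits had positive differences from WT, 6 of them called. The count of members higher in tVk12653 fell to 9 without tVk12653 replicate 2, 22 without tVk12653 replicate 1, 25, 26 and 27 without WT replicates 1, 2 and 3, and 23 without both WT replicate 2 and D1 replicate 1.

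V plasma cells, which carry the transgene but were not transplanted, were set against WT to ask what the transgene goes with before transplantation. No member passed the test in either direction, as 0% of the 11933 genes did in each direction, and the smallest adjusted p among members was 0.759. At an unadjusted p under 0.05 edgeR gave 5 members higher and 0 lower, and DESeq2 called 0 in both directions. The 5 were Atp5g3 at 0.56 ± 0.19 and 4 named here after their values were seen, Atp5o at 0.62 ± 0.19, Ndufb5 at 0.56 ± 0.19, Ndufa5 at 0.44 ± 0.17 and Cox7b at 0.41 ± 0.16. The members' median was 0.25, beside 0.01 for all genes. Summed nuclear members were 5562, 6283 and 5644 CPM in V and 5007, 4688 and 5011 in WT and did not overlap, a difference of a score over members that carries no test.

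The direct comparison of VQ with tVk12653 called 4 members higher and 1 lower of 96, beside 5.97% of all genes higher and 4.19% lower. The members' median difference was 0.25 and that of all genes 0.18. Uqcrc1 was 1.48 ± 0.16 higher in VQ (adjusted p = 0.00103), with the values given above. Atp5b, the catalytic beta subunit of ATP synthase, had 856 and 929.9 CPM in D1, 1167 in the D4 library, 1477 and 1622 in D5, 590.1 and 642 in tVk12653, 569.5, 654 and 575 in V, and 496, 519 and 509 in WT. It was 1.03 ± 0.23 higher (adjusted p = 0.0218), with D5 the highest. Ndufa10, an accessory subunit of complex I, had 172 and 177 CPM in D1, 213 in the D4 library, 198 and 211 in D5, 141 and 138 in tVk12653, 83.3, 83.2 and 87.9 in V, and 87.3, 79.3 and 82.7 in WT. The difference was 0.56 ± 0.14 (adjusted p = 0.039). Both tVk12653 libraries lay between the VQ libraries and those of V and WT. Ndufa3 was lower in VQ, with a difference of -1.34 ± 0.27 (adjusted p = 0.0159). Without either tVk12653 library the calls of Atp5b, Ndufa10 and Ndufa3 were lost, with adjusted p between 0.152 and 0.183 for Atp5b, 0.251 and 0.265 for Ndufa10, and 0.0644 and 0.153 for Ndufa3; Ndufa10 was also lost without line D5 (adjusted p = 0.0531), without both WT replicate 2 and D1 replicate 1 (adjusted p = 0.0636), with RLE factors (adjusted p = 0.0623), with no filter on low counts (adjusted p = 0.136), and without the mitochondrial or the 20 most abundant genes (adjusted p = 0.0574 and 0.0558). Fitted alone, VQ and tVk12653 gave 0 members higher and 0 lower, and with all 13 libraries as units 23 higher and 12 lower. The remaining called member was ND3, described with the mitochondrial genes.

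Myc itself was at 902 and 687 CPM in D1, 1650.2 in the D4 library, 1351 and 1665 in D5, 7999.8 and 8200.4 in tVk12653, 307, 430.1 and 364 in V, and 51.4, 72.2 and 35 in WT. The levels of Myc and of the nuclear members were not in the same order: tVk12653 had the highest Myc and lay below or at the low end of VQ in summed nuclear members. Whether transgene reads were assigned to mouse Myc was not tested.

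The VQ lines differed from each other in single subunits, in both directions. In D1 against D5, 11 of 98 members were higher and 16 lower, beside 20% of 12835 genes higher and 21.7% lower. The members' shares were at or below those of all genes in both directions. The members' median was -0.10 and that of all genes 0.05. The lower calls comprised 3 of 36 complex I subunits, 1 of 8 complex I assembly factors, 1 of 4 complex II subunits, 5 of 11 in complex IV, 5 of 17 in complex V and the mitochondrial ND6, and the higher calls 5 of 36 in complex I, 2 of 8 in complex III and 4 of the 6 complex IV isoforms. These higher calls include the isoform Cox7b2, which met the count filter for members only through its D1 libraries. D1 and D5 are 1 line each, with 2 libraries, so the test is of libraries of these lines. Leaving out a library gave 6 to 8 members higher and 8 to 13 lower: 6 and 11 without D1 replicate 1, 8 and 12 without D1 replicate 2, 6 and 8 without D5 replicate 1, and 7 and 13 without D5 replicate 2.

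Complex IV isoforms split the lines. Cox4i2, the isoform known from lung and from low oxygen, had 2.96 and 4.56 CPM in D1, 32 in the D4 library, 0 and 0 in D5, 2.54 and 1.81 in tVk12653, 10.8, 8.18 and 5.19 in V, and 4.58, 2.21 and 0.284 in WT. Both D5 libraries were at 0 while D4 was the highest of all, and D1 was at least 4.82-fold higher than D5, taken against a floor of 3 counts per library (adjusted p = 0.00245). Cox6a2, the heart and skeletal muscle isoform, had 8.34 and 13.1 CPM in D1, 58 in the D4 library, 0 and 0.256 in D5, 51.5 and 35.5 in tVk12653, 19.2, 22.4 and 16.6 in V, and 13.7, 9.58 and 9.38 in WT. D1 had 152 counts against 1 count in D5, a ratio of 90.4 after scaling with a 95% interval of 16.0 to 3595 that covers counting error only (adjusted p = 6.25e-06). For both isoforms D1 overlapped WT, and D5 stood apart at or near 0. Their general counterparts were lower in D1 than in D5, Cox6a1 with a difference of -1.15 ± 0.22 (adjusted p = 0.000662) and Cox4i1 of -1.12 ± 0.15 (adjusted p = 4.01e-05). D4 combined high Cox4i1 with the highest Cox4i2 and Cox6a2 of all libraries. Cox7b2, a testis-expressed relative of Cox7b, had 2.69 and 2.93 CPM in D1 and 0 in each of the other 11 libraries, at least 3.60-fold above the floor in D5 (adjusted p = 0.0228). Cox7b2 met the count filter for members only through D1, so its direction was fixed by that choice and its call adds no support. Cox6b2, the testis isoform of Cox6b1, had 1.61 and 1.09 CPM in D1, 3.23 in the D4 library, 0 and 0 in D5, 0 and 0 in tVk12653, 0.986, 1.78 and 0.649 in V, and 1.06, 7.0 and 2.27 in WT. It was at least 1.73-fold higher in D1 than D5 (adjusted p = 0.0351). Leave-one-out fits lost Cox6b2 without any 1 of the 4 libraries of these lines (adjusted p between 0.0587 and 0.129), or without both WT replicate 2 and D1 replicate 1 (adjusted p = 0.0530), and Cox7b2 without D1 replicate 1 or either D5 library (adjusted p between 0.0526 and 0.0957), and DESeq2 did not call Cox7b2 (adjusted p = 0.379).

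Subunits of complexes I and V also separated the lines. Ndufa1 was 2.43 ± 0.21 higher in D1 than in D5 (adjusted p = 6.3e-07), and the D5 libraries were the lowest of all 13. Ndufv3, an accessory subunit of the NADH-oxidising module, had 138 and 171 CPM in D1, 203 in the D4 library, 80.02 and 69.5 in D5, 84.6 and 118 in tVk12653, 106, 106 and 113 in V, and 98.2, 84 and 105 in WT. It was 1.05 ± 0.18 higher in D1 (adjusted p = 0.00024). Atp5j2, the f subunit of ATP synthase, had 25.6 and 29.7 CPM in D1, 49.3 in the D4 library, 133 and 138 in D5, 42.8 and 53.2 in tVk12653, 55.2, 52.6 and 50.9 in V, and 40.1, 38.7 and 51.2 in WT. D1 was the lowest and D5 the highest of all libraries, a difference of -2.29 ± 0.18 (adjusted p = 3.12e-07). Atp5pb, the b subunit of the ATP synthase stalk, had 125 and 127 CPM in D1, 142 in the D4 library, 280.3 and 261 in D5, 129 and 108 in tVk12653, 102, 120.2 and 116 in V, and 98.2, 107 and 104 in WT. The difference was -1.11 ± 0.13 (adjusted p = 1.58e-05), and both D5 libraries were well above the remaining 11. Ndufc1 was lower in D1, with a difference of -1.58 ± 0.19 (adjusted p = 1.65e-05). Ndufaf6, a complex I assembly factor, had 3.23 and 4.24 CPM in D1 and 13.5 and 6.39 in D5, a difference of -1.38 ± 0.50 (adjusted p = 0.0377) that was lost without D1 replicate 1, D1 replicate 2 or D5 replicate 1 (adjusted p between 0.0934 and 0.382), without both WT replicate 2 and D1 replicate 1 (adjusted p = 0.132), with no filter on low counts (adjusted p = 0.0730), with DESeq2 (adjusted p = 0.0515) and with the replicate block (adjusted p = 0.0569). The neutrophil markers, at 9 of 15 called higher in D1 than in D5, and the proliferation genes, at 8 of 12 called lower, moved between the same lines, and their part was not tested.

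**Figure D3:**
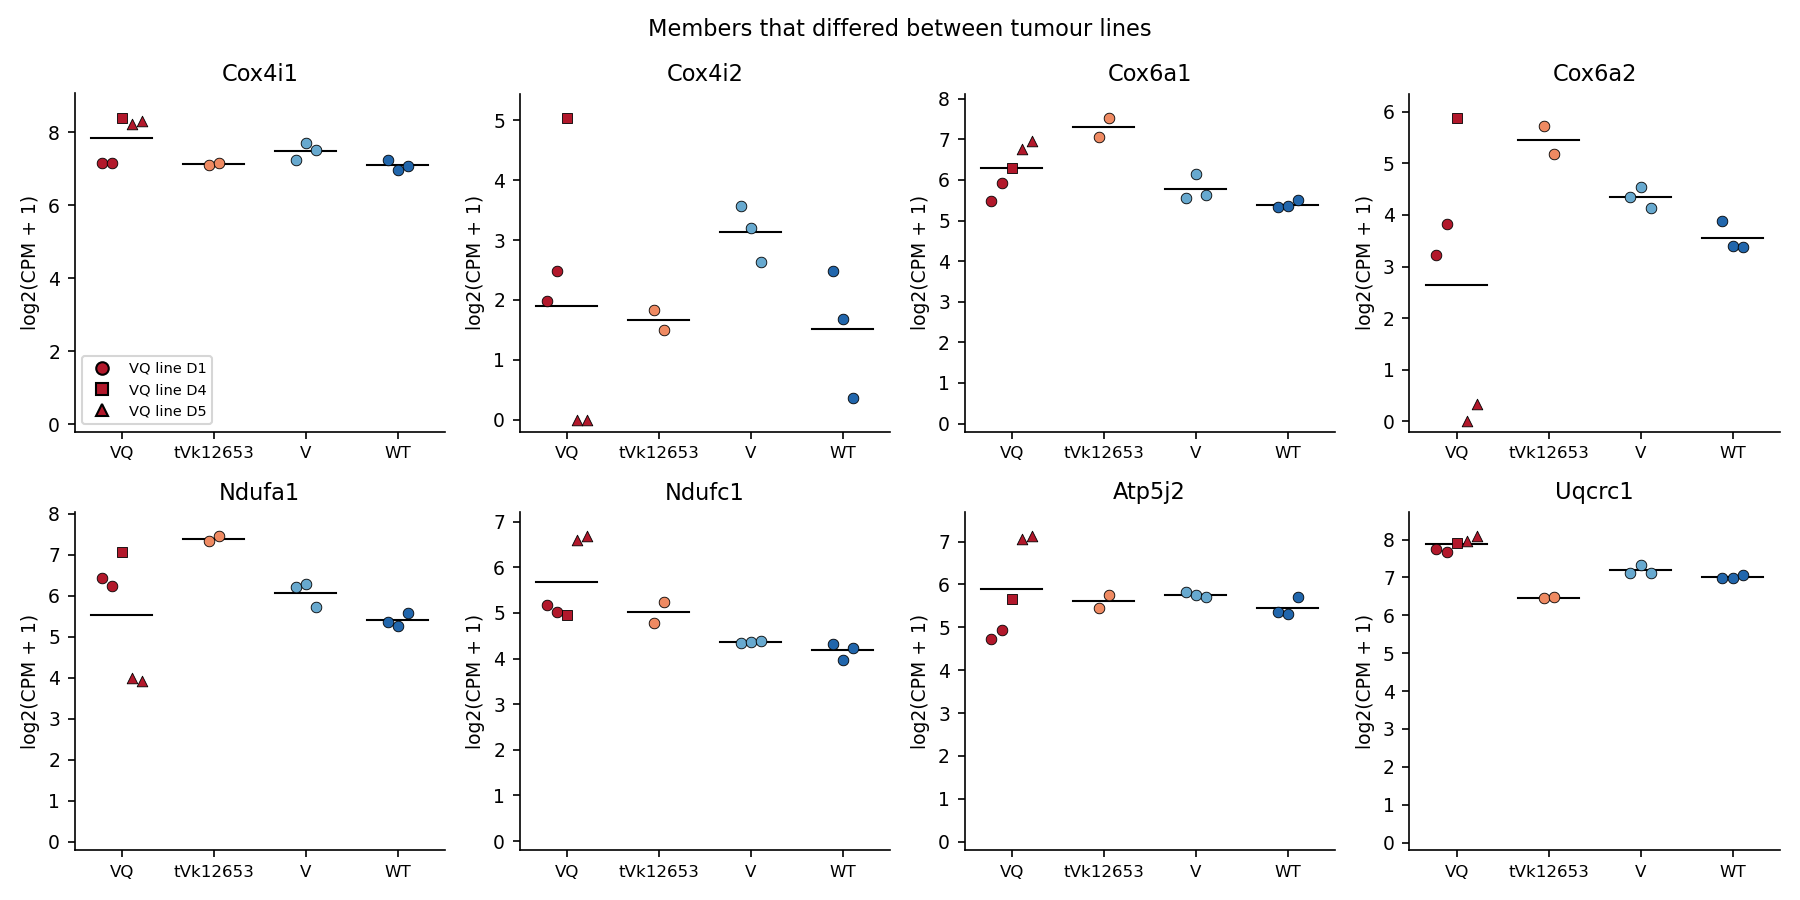
Levels of 8 members as log2(CPM + 1) (vertical axes) in each library, by group (horizontal axes); points are libraries, with the VQ lines as circles (D1), squares (D4) and triangles (D5), and bars are means over libraries. D5 is at 0 for Cox4i2 and lowest for Ndufa1 but highest for Atp5j2 and Ndufc1, and tVk12653 is lowest for Uqcrc1.

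Most mitochondrially encoded members exceeded every nuclear member per length. Averaged over the groups, CYTB reached 3736, ND1 3212, COX1 2872 and ND5 2187 CPM per kb, against 210.1 for Ndufa1, the highest nuclear member, and 36.2 for ND3. ND1, a membrane subunit of complex I, had 3262 and 4331 CPM in D1, 4253 in the D4 library, 4704 and 4558 in D5, 3326 and 4199 in tVk12653, 2512, 1938 and 2424 in V, and 2006, 1735 and 2308 in WT. All VQ and tVk12653 libraries exceeded all V and WT libraries, by 1.15 ± 0.18 in VQ against WT (adjusted p = 0.00174), 0.95 ± 0.18 in VQ against V (adjusted p = 0.00521) and 0.90 ± 0.20 in tVk12653 against WT (adjusted p = 0.00991), the last lost without tVk12653 replicate 2 (adjusted p = 0.0978). COX1, the catalytic subunit of complex IV, had 4524 and 6004 CPM in D1, 6688 in the D4 library, 5628 and 4887 in D5, 3611 and 5137 in tVk12653, 4168, 3824 and 4419 in V, and 3274, 3141 and 4094 in WT. It rose in VQ against WT by 0.79 ± 0.19 (adjusted p = 0.0104) and missed the threshold by a small margin when VQ and WT were fitted alone (adjusted p = 0.050). In tVk12653 its 0.32 ± 0.20 did not pass (adjusted p = 0.269). CYTB, the cytochrome b of complex III, had 3220.5 and 3874 CPM in D1, 5566 in the D4 library, 4182 and 3802 in D5, 4384 and 6762 in tVk12653, 4274, 3561 and 4014 in V, and 3135, 2592 and 3883 in WT. Its difference in VQ against WT was 0.51 ± 0.23 (adjusted p = 0.114), and in tVk12653 it was called at 0.80 ± 0.25 (adjusted p = 0.0402), a call lost without tVk12653 replicate 2 or WT replicate 1 or 2 (adjusted p between 0.100 and 0.366) and without both WT replicate 2 and D1 replicate 1 (adjusted p = 0.116). ND4 had 801 and 1065 CPM in D1, 1446 in the D4 library, 924 and 945 in D5, 1075 and 1340.2 in tVk12653, 1084, 849 and 1041 in V, and 782, 655 and 914 in WT. It had differences of 0.57 ± 0.20 in VQ (adjusted p = 0.0569) and 0.62 ± 0.23 in tVk12653 (adjusted p = 0.0631) against WT. ND5 differed from WT by 0.44 ± 0.23 in VQ (adjusted p = 0.173) and 0.75 ± 0.26 in tVk12653 (adjusted p = 0.0527), and ND2 by 0.24 ± 0.22 (adjusted p = 0.428) and 0.50 ± 0.25 (adjusted p = 0.162). ND6, the one member encoded on the other strand of mitochondrial DNA, had 159 and 182 CPM in D1, 188 in the D4 library, 413 and 317 in D5, 213 and 317 in tVk12653, 127, 199.9 and 145 in V, and 154, 135 and 179 in WT. D1 was lower than D5, with a difference of -1.10 ± 0.23 (adjusted p = 0.00216). Its differences from WT, 0.70 ± 0.32 in VQ (adjusted p = 0.113) and 0.76 ± 0.35 in tVk12653 (adjusted p = 0.128), did not pass.

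**Figure D4:**
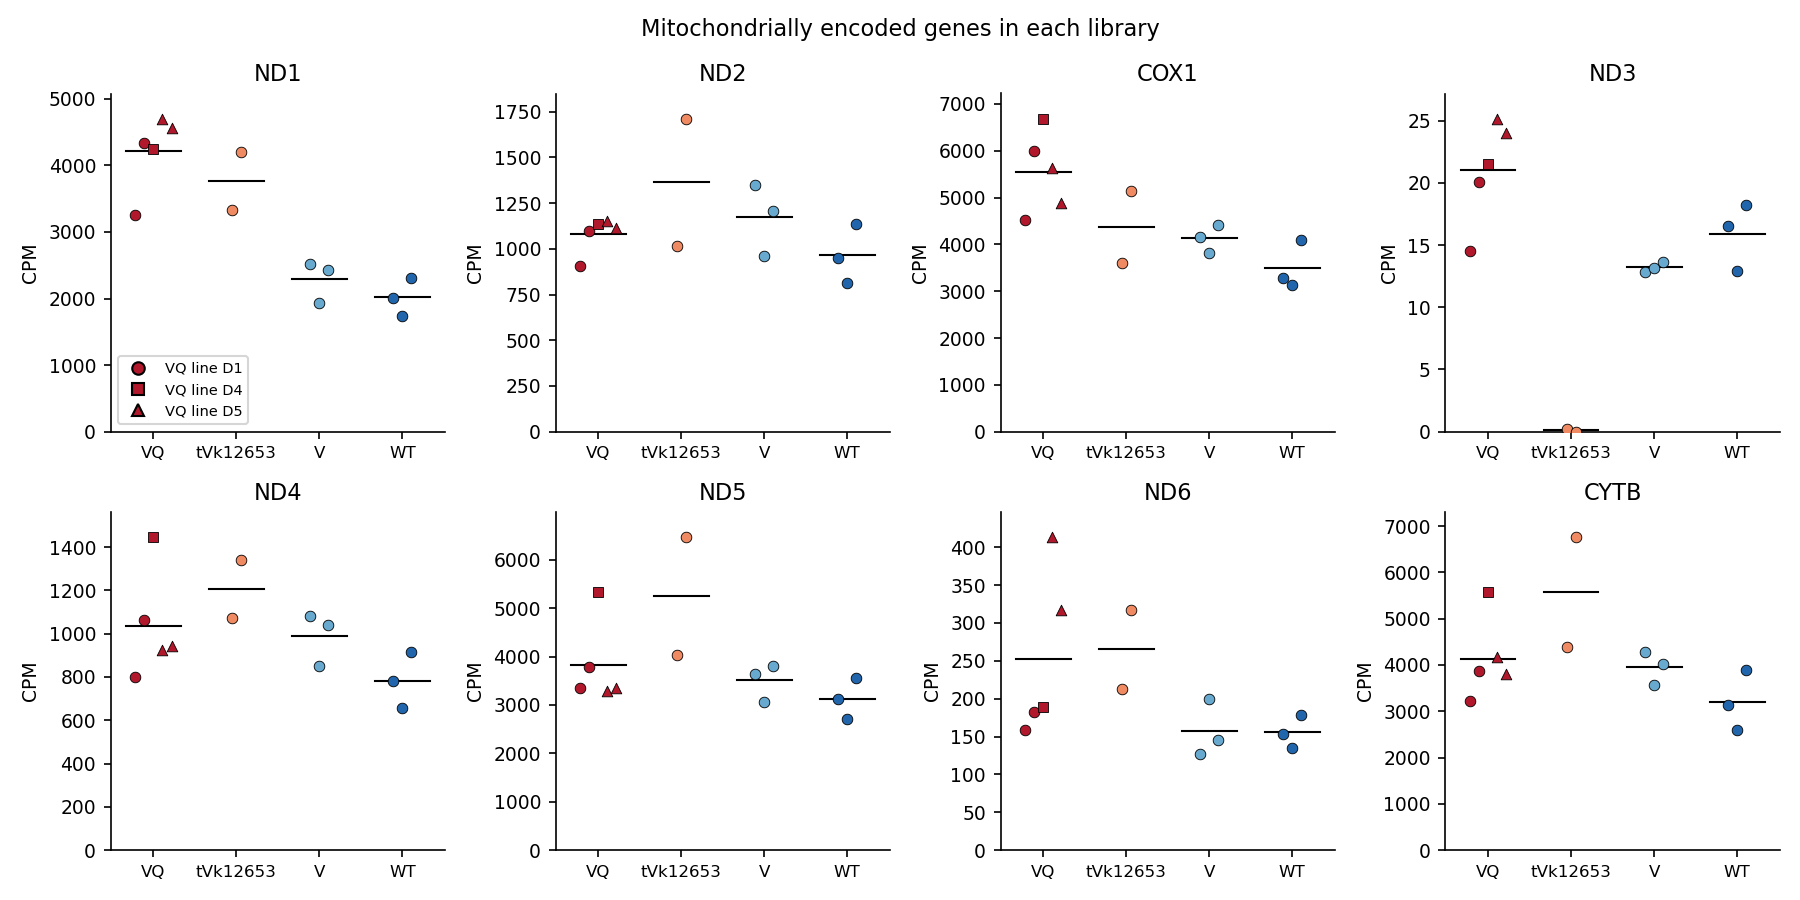
CPM of the 8 mitochondrially encoded members (vertical axes, from 0) in each library, by group (horizontal axes); points are libraries, with the VQ lines as circles (D1), squares (D4) and triangles (D5), and bars are means over libraries. ND1 separates VQ and tVk12653 from V and WT without overlap, the highest ND6 library is of D5, and ND3 is near 0 in tVk12653.

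The makeup of the mitochondrial RNA also differed, a ratio within a library that does not depend on scaling. ND1 held 17.3 to 24.0% of the counts of the 8 mitochondrial members in VQ and 16.2 to 18.8% in tVk12653, against 13.5 to 14.6% in V and 14.3 to 14.9% in WT. COX1 held 25.7 to 29.5% in VQ and 19.8 to 20.5% in tVk12653, against 24.3 to 26.5% in V and 24.4 to 26.6% in WT, so the tVk12653 libraries stood below all others. ND2 held 4.62 to 5.85% in VQ and 5.75 to 6.60% in tVk12653, against 6.65 to 7.87% in V and 6.90 to 7.07% in WT. The balance of the 2 genomes moved by less than the spread between libraries, except between VQ and tVk12653. Mitochondrial counts were 2.25 and 2.68 times in D1, 2.55 times in the D4 library, 2.31 and 2.14 in D5, 2.58 and 3.35 in tVk12653, 3.09, 2.29 and 3.02 in V, and 2.69, 2.51 and 3.21 times the nuclear counts in WT. On the log2 scale this ratio differed by -0.19 in VQ against WT and against V, 0.08 in tVk12653 against WT, -0.01 in V against WT, and -0.27 between VQ and tVk12653, beside a pooled SD of 0.20, and by 0.14 in D1 against D5, beside an SD of 0.20. As a score over members it carries no test.

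ND3, a membrane subunit of complex I, was close to absent from the counts of tVk12653. It had 14.5 and 20.1 CPM in D1, 21.5 in the D4 library, 25.2 and 24 in D5, 0.231 and 0 in tVk12653, 12.8, 13.2 and 13.6 in V, and 16.5, 12.9 and 18.2 in WT. The tVk12653 libraries held 1 count in all, against 581 in VQ, 105 in V and 146 in WT, and each of the other 11 libraries held 10 or more. After scaling, ND3 was 148.5-fold higher in VQ than in tVk12653 (95% interval 26.5 to 5876), and tVk12653 was lower than V by 94.0-fold (16.5 to 3746) and lower than WT by 114-fold (20.2 to 4536), where the intervals cover counting error only. The edgeR test gave adjusted p = 0.000172 for tVk12653 against WT and adjusted p = 0.000181 for VQ against tVk12653. In VQ against WT its difference was 0.49 ± 0.29 (adjusted p = 0.222).

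These ND3 values are uncertain, because a nuclear copy shares nearly the whole gene. The first 60 bases of both are given to show how close they are, from GENCODE transcripts of build GRCm38, ND3 from chrM:9459-9518 on the plus strand and its copy, the pseudogene Gm28438, from chr1:24613060-24613119 on the minus strand; the capital marks base 3, counted from 1 at the 5′ end.
ND3: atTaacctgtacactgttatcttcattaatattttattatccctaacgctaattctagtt
Gm28438: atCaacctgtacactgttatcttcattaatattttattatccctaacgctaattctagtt
Over the 345 bases of the copy the 2 differ by 1 substitution, T3C, ND3 first. Of the 299 windows of 50 bases in ND3, 293 (98.0%) occur unchanged in Gm28438, so most reads of such a length could be placed on either. Of the other members, 62.2% of ND4 windows and 51.1% of COX1 windows occur in a pseudogene transcript, 8.19% of ND2, 7.61% of ND5, and 0% of ND1, ND6 and CYTB. How reads with several placements were counted is not given in the sources used here, and its part in the ND3, ND4 and COX1 values was not tested. The search covered exact matches in annotated transcripts only, so it cannot exclude other placements of ND1 and CYTB reads. The nuclear members were not searched in this way.

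Genes that build or serve the chain were followed in 9 lists chosen with earlier results of these data known, here in VQ against WT, as counts of called genes among those tested and the median difference beside 0.08 over all genes. These counts stand beside 17.3% of all genes higher and 15.1% lower in VQ against WT, and 12.6% and 15.7% in tVk12653 against WT. The list of membrane proteins and carriers had the highest share of calls, with 12 of 15 higher and a median of 0.92, against 6 higher and 1 lower in tVk12653 against WT (median 0.41). Phb, prohibitin, a scaffold of the inner membrane, had 24.2 and 34 CPM in D1, 28.7 in the D4 library, 27.8 and 25.8 in D5, 21.3 and 13.4 in tVk12653, 9.37, 13.2 and 10.7 in V, and 5.28, 8.48 and 9.38 in WT. It rose in VQ by 1.95 ± 0.30 (adjusted p = 0.00143), while Ucp2, a carrier of the inner membrane and the most abundant of the list, rose by 0.75 ± 0.24 (adjusted p = 0.0357), a call lost without line D1 or D4 or any 1 WT library (adjusted p between 0.0596 and 0.144) with RLE factors (adjusted p = 0.0553), and without both WT replicate 2 and D1 replicate 1 (adjusted p = 0.0569). Of 16 TCA cycle genes tested 8 rose and 0 fell (median 0.70), against 3 higher and 1 lower in tVk12653. Dlat, the acetyl-transferring subunit of pyruvate dehydrogenase, had 76.2 and 74.3 CPM in D1, 62.4 in the D4 library, 78.4 and 85.4 in D5, 54.1 and 54 in tVk12653, 40.4, 38.8 and 29.5 in V, and 28.9, 29.5 and 33.3 in WT. It rose by 1.32 ± 0.19 (adjusted p = 0.00122). Ogdh, the most abundant of that list, had 203 and 225 CPM in D1, 249 in the D4 library, 89 and 91 in D5, 253 and 246 in tVk12653, 300.3, 314 and 307 in V, and 304, 259 and 317 in WT. D5 was lowest, and the -0.62 ± 0.29 did not pass (adjusted p = 0.126).

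Of 26 tested genes that copy, transcribe or process mitochondrial RNA and DNA, 8 rose and 0 fell in VQ against WT (median 0.62), and 4 rose in tVk12653 (median 0.39). Top1mt, the mitochondrial topoisomerase, had 37.1 and 43.7 CPM in D1, 62.8 in the D4 library, 76.3 and 89.2 in D5, 42.8 and 31.2 in tVk12653, 17.3, 16.4 and 17.8 in V, and 16.2, 8.85 and 10.5 in WT. It had the largest called difference of the list, 2.45 ± 0.32 (adjusted p = 0.000697) without overlap between VQ and V or WT. Grsf1, an RNA granule protein and the most abundant of this list, had 49 and 68.9 CPM in D1, 63.8 in the D4 library, 227 and 229.5 in D5, 90.4 and 111 in tVk12653, 76.4, 86.1 and 89.9 in V, and 81.3, 61.6 and 88.1 in WT. The D5 libraries stood above all others, and over the arms its 0.69 ± 0.46 did not pass (adjusted p = 0.27). Of 7 tested regulators 1 rose (median 0.05), a share below that of all genes. Pprc1, a coactivator of the PGC-1 family, had 132 and 139 CPM in D1, 131 in the D4 library, 143 and 152 in D5, 144 and 146 in tVk12653, 77.9, 96.1 and 58.4 in V, and 69.7, 84.8 and 65.7 in WT. It rose by 0.97 ± 0.20 (adjusted p = 0.00534). Yy1, the most abundant regulator, differed by -0.34 ± 0.14 (adjusted p = 0.091).

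Among the further complex I assembly factors 1 of 13 rose (median 0.32), Ecsit at 0.74 ± 0.20 (adjusted p = 0.0191), and the most abundant, Dmac1, differed by 0.33 ± 0.24 (adjusted p = 0.309). Of 9 factors for complexes II and III 1 rose (median 0.32), Uqcc2 at 1.17 ± 0.31 (adjusted p = 0.0164), with Ttc19, the most abundant, at 0.64 ± 0.29 (adjusted p = 0.109). Complex IV factors had 2 of 21 higher and 1 lower (median 0.16), shares below those of all genes. Sco2, a copper chaperone, led them with 2.42 and 3.91 CPM in D1, 3.79 in the D4 library, 4.77 and 7.41 in D5, 3.0 and 4.35 in tVk12653, 3.45, 3.91 and 0.649 in V, and 0, 1.11 and 0.284 in WT. The rise was 3.29 ± 0.95 (adjusted p = 0.0244) on few counts, and Coa5, the most abundant, differed by -0.01 ± 0.30 (adjusted p = 0.983). Complex V factors had 2 of 6 higher (median 0.80), Tmem70 at 0.93 ± 0.26 (adjusted p = 0.0202) and Atpif1, the inhibitor of ATP hydrolysis, at 0.92 ± 0.24 (adjusted p = 0.0164). Among 18 genes of ubiquinone synthesis, cytochrome c and other electron carriers 3 rose and 1 fell (median 0.43), shares below those of all genes. Coq7, a ubiquinone synthesis hydroxylase, rose by 1.63 ± 0.37 (adjusted p = 0.00923), and Etfdh, the most abundant, differed by 0.29 ± 0.18 (adjusted p = 0.249). The calls of Ecsit, Uqcc2 and Tmem70 were lost without WT replicate 2 or 3 and those of Sco2 and Atpif1 without WT replicate 1 or 3, with adjusted p between 0.0545 and 0.0940. With VQ and WT fitted alone all 5 were lost (adjusted p between 0.0544 and 0.0780), and Ecsit also with no filter on low counts (adjusted p = 0.0557). Without both WT replicate 2 and D1 replicate 1, Ecsit, Uqcc2 and Tmem70 were lost (adjusted p between 0.0653 and 0.0758).

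Promoters of the nuclear members are shown for 4 of the genes that carried these results, since most nuclear members rose together in VQ and each of these promoters holds a different motif. NRF1 and GABPA are factors long linked to respiratory chain genes, YY1 is another, and MYC binds the E-box. The sequences run from 250 bases before to 50 after the start of transcription, 5′ to 3′ on the gene's strand, from RefSeq on build GRCm38.p6: Ndufc1 at chr3:51408906-51409205 (minus), Atp5g1 at chr11:96075582-96075881 (minus), Uqcrc1 at chr9:108936398-108936697 (plus) and Atp5md at chr19:47090598-47090897 (minus). Capitals mark the YY1 motif in Ndufc1, the E-box in Atp5g1, the NRF1 motif in Uqcrc1 and the GABPA motif, read on the other strand, in Atp5md.
Ndufc1: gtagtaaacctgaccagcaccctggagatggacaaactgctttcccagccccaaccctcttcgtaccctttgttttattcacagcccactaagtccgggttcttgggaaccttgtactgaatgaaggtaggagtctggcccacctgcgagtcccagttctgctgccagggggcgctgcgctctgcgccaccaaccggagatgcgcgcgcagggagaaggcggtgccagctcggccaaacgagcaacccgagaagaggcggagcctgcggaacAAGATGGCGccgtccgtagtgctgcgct
Atp5g1: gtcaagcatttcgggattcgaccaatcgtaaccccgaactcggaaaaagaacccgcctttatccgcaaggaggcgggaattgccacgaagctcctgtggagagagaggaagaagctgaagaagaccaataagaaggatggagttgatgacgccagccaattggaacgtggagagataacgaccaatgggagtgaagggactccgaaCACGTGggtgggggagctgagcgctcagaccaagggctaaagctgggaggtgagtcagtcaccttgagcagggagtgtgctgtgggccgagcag
Uqcrc1: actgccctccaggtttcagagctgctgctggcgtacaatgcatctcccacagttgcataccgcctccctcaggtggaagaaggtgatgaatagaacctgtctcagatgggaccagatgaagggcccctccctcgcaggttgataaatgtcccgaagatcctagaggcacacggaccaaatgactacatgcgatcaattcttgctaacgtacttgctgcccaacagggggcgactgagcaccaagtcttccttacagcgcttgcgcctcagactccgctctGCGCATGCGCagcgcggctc
Atp5md: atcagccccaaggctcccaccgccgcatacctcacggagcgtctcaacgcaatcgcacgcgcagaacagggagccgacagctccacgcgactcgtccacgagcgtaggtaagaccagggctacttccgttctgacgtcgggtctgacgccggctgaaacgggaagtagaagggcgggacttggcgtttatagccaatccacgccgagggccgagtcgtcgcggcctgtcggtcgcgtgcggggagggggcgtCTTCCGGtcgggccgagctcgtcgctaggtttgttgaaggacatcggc
RefSeq gave a promoter for 74 of the 90 nuclear members, 79 sequences in all. Searched on both strands, the NRF1 motif (the letters in capitals in Uqcrc1) was in 8.86% of them and in 0.971% of all 32851 promoters, the YY1 motif (AAGATGGCG) in 10.1% and 1.40%, the GABPA motif (CCGGAAG) in 24.1% and 8.86%, and the E-box (CACGTG) in 8.86% and 7.15%. The searched motifs do not contain one another. Split by the call in VQ against WT, the 45 promoters of genes called higher and the 34 of the other nuclear members held the E-box in 11.1% and 5.88%, the YY1 motif in 13.3% and 5.88%, the NRF1 motif in 6.67% and 11.8%, and the GABPA motif in 22.2% and 26.5%. These were few promoters, 5 and 2 for the E-box, 6 and 2 for YY1, 3 and 4 for NRF1, and 10 and 9 for GABPA. The split was not tested. Some genes have several overlapping sequences, and those of Ndufa7 each count as an E-box match. A match describes these letters only.

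**Figure D5:**
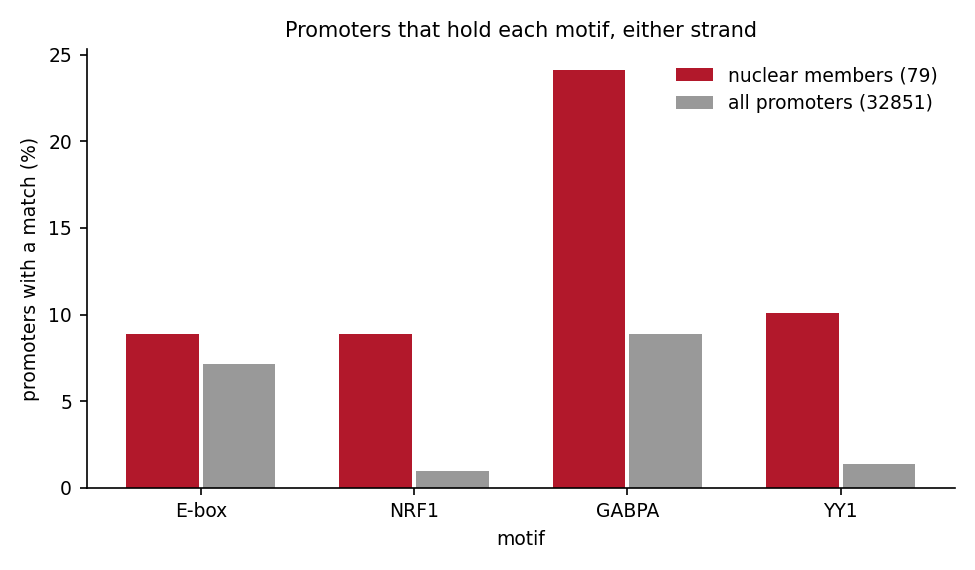
Share of promoters (vertical axis, percent, from 0) that hold each motif (horizontal axis) on either strand, for the 79 promoters of nuclear members and all 32851 promoters. The GABPA, NRF1 and YY1 bars of the members are above those of all promoters, at 24.1, 8.86 and 10.1%, and the E-box bars are close, at 8.86 and 7.15%.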

How the data were processed

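The deposited values were raw counts, 1 per gene symbol and library, without normalization. Per the labels' protocols, an RNeasy Micro kit gave the RNA and a SMARTer stranded kit (pico input, total RNA) the 13 libraries. STAR 2.6.1d and build GRCm38.p6 are named in the submitters' processing notes; the sources used here do not give the counting tool, annotation, strand setting or handling of reads with several placements. Without a known strand setting, overlapping genes on opposite strands (ND5 and ND6 on mitochondrial DNA) may share reads.

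From these counts, CPM and tests were computed in R 4.3.3 with edgeR 4.0.16: filterByExpr kept genes (minimum count 10, minimum total 15), which were scaled by trimmed means of M values and tested with quasi-likelihood F tests (robust), with Benjamini-Hochberg adjustment over all genes and a threshold of 0.05. VQ, tVk12653, V and WT shared a fit of 11 units, in which the libraries of each of the 3 VQ lines were summed and the 2 tVk12653 libraries were not (common biological coefficient of variation 0.409). D1 and D5 were compared over 13 unsummed libraries with 6 group means (0.195). Of the 98 members, 96 were tested between arms, Atp5g2 and Cox7b2 being too low, and 98 between lines. The 13 columns were all matched to samples. Replicate libraries differed beyond sampling noise (chi-square over degrees of freedom 5.23 to 15.6), so none were merged as duplicates. A floor of 3 counts equals 0.326 to 1.48 CPM.

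In each comparison the genes named were the 6 largest called changes per direction, the mitochondrial members, the most abundant nuclear member per complex, the isoform sets, Myc, and per pathway list the largest call in VQ against WT and the most abundant gene. The members and lists were chosen with earlier results of these data known. V and WT libraries with the same number deviated together (r of 0.125 to 0.190, against -0.144 to -0.0380 for different numbers), and a fit with the number as a block was an alternative. The others were RLE factors, no filter, a minimum count of 30, DESeq2 1.42.0, the compared arms alone, all libraries as units, the 20 most abundant genes or the mitochondrial genes removed, and libraries or lines left out. Gene lengths are from GENCODE on GRCm38 and promoters from RefSeq. The tests were checked on simulated counts. Those counts were drawn independently for each unit, so the check cannot show whether the tVk12653 libraries may be treated as separate units.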

Additional observations from a re-analysis of the deposited data

Results flagged for a closer look

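Between VQ and tVk12653, both set against the same WT libraries, 5 members had effects that differed in the direct test, 4 higher and 1 lower of 96. Both shares lay below those of all genes, 5.97% higher and 4.19% lower. Fitted alone, VQ and tVk12653 gave 0 members higher and 0 lower. ND3 was 148.5-fold higher in VQ by scaled counts. This value is uncertain, since 98.0% of the 50-base windows of ND3 also occur in the nuclear copy Gm28438. How reads with several placements were counted is not given in the sources used here. Uqcrc1 was 1.48 higher on the log2 scale, being above WT in VQ and below WT in tVk12653. Atp5b and Ndufa10 were 1.03 and 0.56 higher in VQ, and Ndufa3 differed by -1.34.

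Between the lines D1 and D5, 12 members were picked out as the largest called differences per direction. Of 98 members, 11 were called higher and 16 lower, beside 20% and 21.7% of all genes. Cox4i2 was at least 4.82-fold, Cox7b2 at least 3.60-fold and Cox6b2 at least 1.73-fold higher in D1, each against 0 counts in D5, and Cox6a2 was 90.4-fold higher by scaled counts. Cox7b2 became a member only through its D1 counts. On the log2 scale Ndufa1 was 2.43 and Ndufv3 1.05 higher in D1, while Atp5j2 differed by -2.29, Ndufc1 by -1.58, Ndufaf6 by -1.38, Cox6a1 by -1.15, Cox4i1 by -1.12 and Atp5pb by -1.11.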

How the results depend on the processing

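Of 2922 single-gene values under the alternatives, 2657 kept their direction and side of the threshold, 162 lost a call, 97 gained one and 6 turned direction. These 6 came from the fits with all 13 libraries as units: Cox6a2 in VQ against WT (-1.21, and -1.32 with the replicate block) and against V (-2.05 and -2.16), and Cox4i2 in VQ against V (-2.34 and -2.80), none of which was called in the fit of 11 units. Those fits treat libraries of 1 VQ line as independent, as the fit of 11 units does for tVk12653. They gave 3 members lower in VQ against WT (3 with the block), 6 (5) lower in VQ against V, 6 (5) lower in tVk12653 against WT, and 23 higher and 12 lower (25 and 12) in VQ against tVk12653. Fitting the compared arms alone gave 34 higher in VQ against WT, 14 in VQ against V, and 0 higher and 0 lower in VQ against tVk12653. DESeq2 gave 8 higher and 4 lower in VQ against tVk12653, and removal of the mitochondrial genes 2 higher. In tVk12653 against WT, 1 member was lower with no filter, without mitochondrial genes, or without WT replicate 2 and D1 replicate 1, when 23 were higher.

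Leaving out each library or line gave 35 to 55 higher and 0 to 1 lower in VQ against WT, 20 to 37 and 0 to 1 in VQ against V, 9 to 27 and 1 in tVk12653 against WT, 2 to 8 and 0 to 3 in VQ against tVk12653, and 6 to 8 and 8 to 13 in D1 against D5. V against WT stayed at 0 and 0 in all fits, the fits with the replicate block included. The log2 ratio of mitochondrial to nuclear counts moved by less than 1 SD in all alternatives, and with libraries left out it lay between -0.27 and -0.09 in VQ against WT, -0.46 and -0.08 in VQ against tVk12653, and -0.11 and 0.27 in tVk12653 against WT. The causes were not tested. With 2 tVk12653 and 3 WT or V libraries, and few counts in members such as Sco2, Atp5g2 and the complex IV isoforms, differences of modest size can stay below the threshold.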

Other observations

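Genes of the pathway lists also differed between D1 and D5, with the genes named here chosen after their values were seen. Slc25a4, the heart and muscle form of the ADP and ATP carrier, had 9.69 and 11.2 CPM in D1, 102 in the D4 library, 177 and 178 in D5, 58.5 and 71.7 in tVk12653, 28.1, 53.4 and 39.6 in V, and 27.5, 36.9 and 48 in WT. D1 was lower, with a difference of -4.06 ± 0.29 (adjusted p = 2.03e-07). Pdha1, the X-linked catalytic subunit of pyruvate dehydrogenase, had 23.7 and 21.3 CPM in D1, 134 in the D4 library, 168 and 155 in D5, 119 and 143 in tVk12653, 58.7, 79.3 and 66.2 in V, and 62.7, 84.8 and 69.7 in WT. D1 was lower, with a difference of -2.85 ± 0.19 (adjusted p = 7.39e-08). Sdhaf1, an assembly factor of complex II, had 66.5 and 83.4 CPM in D1, 27.1 in the D4 library, 13.2 and 16.1 in D5, 224 and 206 in tVk12653, 29.1, 32.4 and 25 in V, and 23.2, 20.6 and 22.2 in WT. D1 exceeded D5 by 2.36 ± 0.19 (adjusted p = 4.11e-07). Esrra, a nuclear receptor that acts on respiratory genes, had 15.1 and 12.3 CPM in D1, 11.4 in the D4 library, 4.77 and 2.81 in D5, 15.3 and 19.9 in tVk12653, 11.8, 9.61 and 14 in V, and 14.1, 13.6 and 18.5 in WT. It was also higher in D1, by 1.83 ± 0.37 (adjusted p = 0.00105).

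Over whole lists, 7 of 18 electron carrier genes were lower and 0 higher in D1 against D5, as were 9 lower and 2 higher of 26 for mitochondrial DNA expression, 6 lower and 1 higher of 16 for the TCA cycle, and 6 lower and 0 higher of 15 for the membrane list, beside 21.7% of all genes lower and 20% higher. In tVk12653 against WT, Pnpt1, a mitochondrial RNA-degrading enzyme, had 50.3 and 57.8 CPM in D1, 34.3 in the D4 library, 64.9 and 83.3 in D5, 197 and 279.6 in tVk12653, 29.1, 44.5 and 25.6 in V, and 28.5, 27.6 and 32.4 in WT. The rise was 3.01 ± 0.35 (adjusted p = 0.00055), with both tVk12653 libraries the highest of all.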
